A study of Homo sapiens with 8 samples.

Results

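Long noncoding RNA (lncRNA) genes are often annotated close to a protein-coding gene, so that a histone mark at their start cannot be assigned to the lncRNA itself. The promoters described here are those of stand-alone lncRNA genes, meaning genes annotated as lncRNA in GENCODE release 44 on hg19 whose transcription start site (TSS, the 5′ end of the gene) had no protein-coding transcript TSS within 5 kb. Of 18592 lncRNA genes on chromosomes 1 to 22 and X, 13293 met this rule, out of 63827 annotated gene start sites of all kinds. Only 3666 of them (27.6%) carried a gene symbol, and 629 of their windows overlapped the window of an earlier member. Each promoter was a window of 2001 bp, 1 kb on each side of the TSS, and was scored for H3K4me3 and H3K27ac peaks in 8 ChIP-seq libraries. The libraries came from HL-60, an established cell line from peripheral blood of acute promyelocytic leukemia, treated for 4 days with 1 µM all-trans retinoic acid (ATRA) or with ethanol, its solvent. Each mark had 2 ATRA and 2 control replicates. All libraries came from this 1 line, and the labels number the replicates without saying whether they were separate cultures, so that a p-value measures only the spread between these libraries.

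H3K4me3 is deposited by SET1 and MLL methyltransferase complexes and marks the starts of active genes, with the widest and steadiest signal over CpG-rich promoters. H3K27ac is placed by the acetyltransferases p300 and CBP and marks both active promoters and active enhancers. Many lncRNAs start at enhancers, others are precursors of microRNAs or of small nucleolar RNAs (snoRNAs), and ATRA acts through retinoic acid receptors that bind DNA and drives HL-60 cells towards granulocytes.

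A promoter was called gained when both ATRA libraries and neither control library of a mark had a peak touching its window, lost in the opposite case, kept when all 4 libraries had a peak, absent when none had, and mixed otherwise. The call asks for at least 1 bp of overlap. It carries no test, because 2 libraries against 2 cannot give an exact two-sided p below 0.333. The files hold peaks and no read counts, so the depth behind each peak is unknown. In a bulk sample a mark placed in more cells and a mark placed more densely in each cell cannot be told apart. Among genes of granulocyte precursors, MPO, SPI1, MYB, CEBPE and CTSG had both marks in every library. ELANE, NCF1 and FPR1 had a peak of neither mark in any library. Of 8 genes of other cell types, between 0 and 1 had an H3K4me3 peak and between 1 and 4 an H3K27ac peak per library, and ALB, HBB, CD8A and MS4A1 had none. CD3E was gained for H3K27ac and had no H3K4me3.

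The sequences of 4 promoters are shown because they stand among the first by the naming rule, among promoters called for both marks and then among those called for H3K4me3. Each run holds 300 bases of GRCh37, from 250 before to 50 after the TSS, written 5′ to 3′ on the strand of the gene. Capitals mark the short motifs searched on both strands, which were GAGGAA for PU.1, TTGCNNAA for C/EBP, TGTGGT for RUNX, AGATAA for GATA factors and a retinoic acid response element of 2 AGGTCA elements in the same direction spaced by 1, 2 or 5 bases. The first pair, PTPRN2-AS1 at chr7:157646971-157647270 and LINC00920 at chr16:66442169-66442468, both on the plus strand, were gained for both marks.
PTPRN2-AS1: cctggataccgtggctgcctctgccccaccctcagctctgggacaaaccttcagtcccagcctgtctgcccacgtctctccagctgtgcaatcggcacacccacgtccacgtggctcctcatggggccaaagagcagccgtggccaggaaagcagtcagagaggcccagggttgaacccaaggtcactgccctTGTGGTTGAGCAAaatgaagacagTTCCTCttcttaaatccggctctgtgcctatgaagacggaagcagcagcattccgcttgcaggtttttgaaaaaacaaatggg
LINC00920: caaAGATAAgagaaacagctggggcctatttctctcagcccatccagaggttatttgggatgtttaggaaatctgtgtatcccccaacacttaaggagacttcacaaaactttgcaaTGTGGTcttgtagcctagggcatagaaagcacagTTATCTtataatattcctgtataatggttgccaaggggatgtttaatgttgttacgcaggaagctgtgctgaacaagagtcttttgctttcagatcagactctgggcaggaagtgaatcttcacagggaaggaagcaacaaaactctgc
LINC01526 at chr6:82523825-82524124 (minus strand) was gained for H3K4me3.
LINC01526: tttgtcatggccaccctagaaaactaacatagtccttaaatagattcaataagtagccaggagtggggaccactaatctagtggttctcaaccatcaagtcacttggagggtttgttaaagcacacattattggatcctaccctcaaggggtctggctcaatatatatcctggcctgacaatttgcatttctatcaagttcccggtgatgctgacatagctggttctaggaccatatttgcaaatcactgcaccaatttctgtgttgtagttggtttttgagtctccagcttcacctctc
AOX3P-AOX2P at chr2:201560196-201560495 (plus strand) was lost for H3K4me3.
AOX3P-AOX2P: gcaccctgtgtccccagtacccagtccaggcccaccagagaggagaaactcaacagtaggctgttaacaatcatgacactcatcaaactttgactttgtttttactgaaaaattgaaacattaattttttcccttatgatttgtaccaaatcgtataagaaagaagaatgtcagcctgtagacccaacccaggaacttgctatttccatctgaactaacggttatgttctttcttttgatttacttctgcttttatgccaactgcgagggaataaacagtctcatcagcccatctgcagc
The PTPRN2-AS1 promoter held 9 CpG dinucleotides in these 300 bases, with a RUNX match that ran into a C/EBP match and a separate PU.1 match. LINC00920 held 1 CpG, 2 GATA matches and 1 RUNX match. LINC01526 held 1 CpG and AOX3P-AOX2P held 3, both with no match. None of the 4 runs held the response element, which says only that these letters are not in these windows.

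Few stand-alone lncRNA promoters carried either mark. An H3K4me3 peak touched 6.21% and 5.86% of them in the ATRA libraries and 6.32% and 5.04% in the control libraries. An H3K27ac peak touched 8.004% and 10.51% in the ATRA libraries and 4.72% and 7.91% in the control libraries. The control library of replicate 2 lay close to the ATRA library of replicate 1 for H3K27ac, so the groups were separated only narrowly. The difference between ATRA and control was 0.36 percentage points for H3K4me3 (exact two-sided permutation p = 1, n = 2 per condition) and 2.95 points for H3K27ac (exact two-sided permutation p = 0.333, the smallest possible). Within replicate numbers, the H3K27ac difference was 3.29 points for number 1 and 2.60 points for number 2, whereas the H3K4me3 difference was -0.105 and 0.82 points. Leaving out control replicate 2 turned the H3K4me3 difference to -0.282 points. The deposited files held 28200 and 39332 H3K27ac peaks for ATRA and 15457 and 29616 for control, and between 13241 and 16487 H3K4me3 peaks per library. With every H3K27ac library reduced to its 15457 longest peaks, the H3K27ac difference was 1.13 points.

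The contrast with other promoters was far larger than the contrast between conditions. LncRNA genes with a protein-coding TSS within 5 kb (n = 5299) had an H3K4me3 peak in 52.4% to 55.2% of windows per library, and protein-coding genes (n = 20098) in 51.1% to 53.1%. The gap between protein-coding and stand-alone lncRNA promoters was 46.6 and 46.6 points in the ATRA libraries and 46.8 and 46.1 points in the control libraries for H3K4me3. For H3K27ac it was 35.2 and 36.4 points with ATRA and 31.5 and 34.1 points in control, a difference of 3.01 points (exact two-sided permutation p = 0.333, n = 2 per condition).

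**Figure D1:**
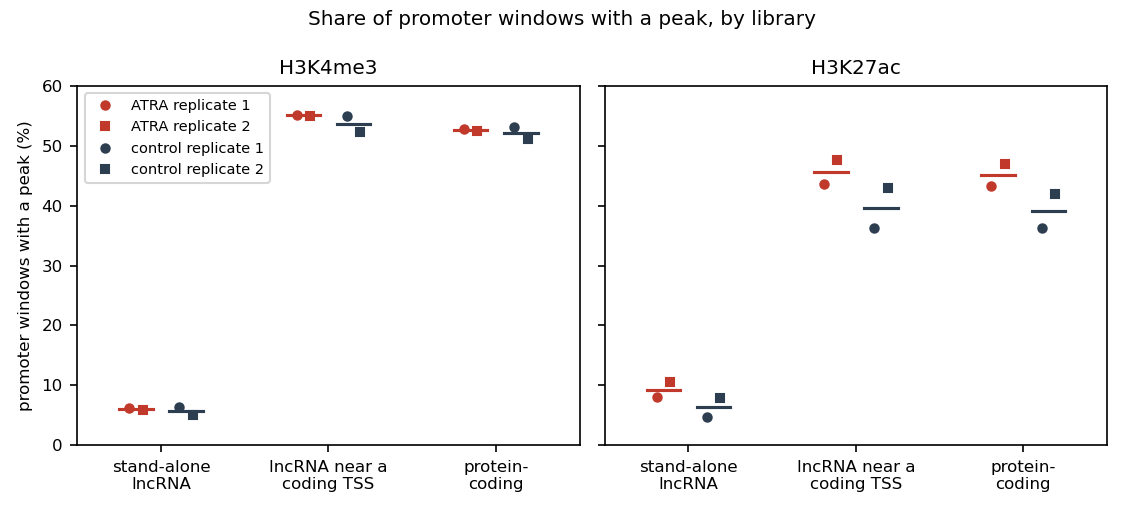
Share of promoter windows touched by a peak (vertical axis, %) for 3 classes of genes, with 1 point per library (circles replicate 1, squares replicate 2) and a bar at the mean of each condition. Stand-alone lncRNA promoters lie between 4.72% and 10.51%, far below the other classes in all 8 libraries.

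For H3K4me3, 12341 stand-alone lncRNA promoters were absent, 631 kept, 30 gained, 14 lost and 277 mixed. The gained share was 0.226%, against 0.277% over all annotated start sites, 0.698% of lncRNA genes near a coding TSS and 0.269% of protein-coding genes. The lost share was 0.105%, against 0.0862% over all start sites, and both shares were thus near the background. The kept share was 4.75%, well below the 22.9% of all start sites. The counts depended on single libraries, because each library left out loosens the call. They were 63 gained and 29 lost without ATRA replicate 1, 72 and 17 without ATRA replicate 2, 101 and 16 without control replicate 1, and 30 and 77 without control replicate 2. Comparing each ATRA library with the control library of its own number, as a replicate block, gave on average 108 gained and 60.5 lost per number. With equal peak numbers the split was 20 gained and 21 lost, and with only peaks of −log10 q of at least 5 it was 37 and 35, of which 17 and 8 were promoters of the main calls.

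The 30 promoters gained for H3K4me3 lay at 28 separate loci, and 10 had a symbol. PLCB2-AS1, which starts in an exon of PLCB2 on the opposite strand, had 2001 and 1899 bp of its window under H3K4me3 peaks in the ATRA libraries and 0 bp in both control libraries. PLCB2 encodes a phospholipase C of blood cells that acts downstream of G protein-coupled receptors. The ATRA peaks at PLCB2-AS1 were 12944 and 11338 bp long, at least 1 of them reached a protein-coding TSS, and no library had H3K27ac there. With peaks that reach a coding TSS left out, the difference at PLCB2-AS1 was 0 bp and the gain was no longer called. The nearest coding promoter, that of PLCB2, kept H3K4me3. LINC01526, 61383 bp from the TSS of the poly(A) polymerase gene TENT5A, had 780 and 1429 bp under H3K4me3 peaks with ATRA and 0 bp in both controls. Its H3K27ac covered the whole window with ATRA (2001 and 2001 bp), with 0 and 1098 bp in control. In both promoters the H3K4me3 values of the conditions did not overlap, which the call itself requires.

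Smaller stretches were gained at the others. LINC01719 had 1061 and 708 bp with ATRA and shared its peak with an unnamed lncRNA gene, ENSG00000287190, which starts beside it. LINC01554 had 753 and 251 bp, LINC01322 had 302 and 649 bp and HCG15, in the extended major histocompatibility complex, had 406 and 486 bp. LINC00563 had 659 and 29 bp while H3K27ac filled its window in all 4 libraries (2001 bp each). Across the 30 promoters the median length of the H3K4me3 peaks was 1574.5 bp, against 3422.5 bp at kept promoters. H3K27ac at these 30 promoters was gained in 5, kept in 4, mixed in 15 and absent in 6.

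The 5 promoters gained for both marks made up 0.0376% of stand-alone lncRNA promoters, against 0.058% of all start sites. PTPRN2-AS1 starts in an intron of PTPRN2, on the strand opposite to this phosphatase gene of secretory vesicles, 233020 bp from its nearest coding TSS. H3K4me3 covered 1027 and 2001 bp of its window and H3K27ac 2001 and 2001 bp with ATRA, with 0 bp of either mark in the controls. LINC00920, an intergenic gene, lay 13061 bp from its nearest coding TSS, a start of CDH5 (the endothelial cadherin gene). It had 1050 and 605 bp of H3K4me3 and 2001 and 2001 bp of H3K27ac with ATRA and 0 bp in control. At the nearest coding TSS of PTPRN2-AS1 and of LINC00920, no library had a peak of either mark. Other starts of PTPRN2 and CDH5 were not examined here. PTCSC1, in introns of SLA and TG, had 1856 and 416 bp of H3K4me3 and 1610 and 477 bp of H3K27ac with ATRA and 0 bp in control, and its H3K4me3 peaks were 24120 and 6229 bp long, at least 1 of them reaching a protein-coding TSS. With such peaks left out, its H3K4me3 difference was 0 bp. The nearest coding promoter, that of SLA, kept both marks. SLA encodes an adaptor protein of hematopoietic cells and TG encodes thyroglobulin.

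The other two had no symbol and were named after their values were seen. ENSG00000275278 starts in an intron of the fatty acyl reductase gene FAR2 and had 1269 and 797 bp of H3K4me3 and 607 and 2001 bp of H3K27ac with ATRA. ENSG00000269972 starts in an exon of TUG1 on the opposite strand and had 207 and 555 bp of H3K4me3 and 496 and 521 bp of H3K27ac. Both had 0 bp of either mark in the controls. The count for both marks was 11 without ATRA replicate 1, 15 without ATRA replicate 2, 13 without control replicate 1 and 15 without control replicate 2. It was 30 on average within replicate numbers, 2 when a coding TSS within 10 kb was also excluded, and 1, PTPRN2-AS1, when 1000 bp of overlap was asked for. None of these 5 was still gained for both marks with a −log10 q of at least 5, where 1 other promoter was. No stand-alone lncRNA promoter was lost for both marks, against 0.00313% of all start sites, and 2 were without control replicate 2.

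The 14 promoters lost for H3K4me3 occupied 11 separate loci, and 4 had a symbol. AOX3P-AOX2P, a readthrough of aldehyde oxidase pseudogenes, lay 32816 bp from its nearest coding TSS, a start of AOX1. It had 0 bp under H3K4me3 peaks in both ATRA libraries and 1548 and 344 bp in control. The start of an unnamed member, ENSG00000290905, lies under the same peaks. H3K27ac was kept at AOX3P-AOX2P, at 2001 and 1850 bp with ATRA and 2001 and 2001 bp in control. LINC00680 had 0 bp with ATRA and 580 and 207 bp in control, a peak that it shared with 2 unnamed members, ENSG00000283352 and ENSG00000225096. BCRP3, named after the BCR pseudogene family, had 0 bp with ATRA and 230 and 200 bp in control. LRRC2-AS1 had 0 bp with ATRA and 187 and 36 bp in control. The median length of the peaks at lost promoters was 946 bp.

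Among the 14, H3K27ac was kept in 8, mixed in 5 and absent in 1. It was kept at 3.60% of all stand-alone lncRNA promoters, most of which had no H3K4me3. Among promoters with H3K4me3, H3K27ac was kept at 303 of the 631 kept, 57 of the 277 mixed and 4 of the 30 gained. The 8 lost promoters that kept H3K27ac are not separate loci. AOX3P-AOX2P and ENSG00000290905 share their H3K27ac peaks, as do ENSG00000289959 and ENSG00000261030. Kept asks only for a peak in all 4 libraries, and the covered length could still fall. Chosen after its values were seen, ENSG00000286317 had the largest mean stretch in control, 1393 and 1195 bp of H3K4me3, with H3K27ac at 200 and 986 bp with ATRA and 2001 and 2001 bp in control. ENSG00000289959 had 2001 and 299 bp of H3K4me3 in control and 2001 bp of H3K27ac in all 4 libraries. In both promoters the H3K27ac state stayed kept while no ATRA library had an H3K4me3 peak.

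**Figure D2:**
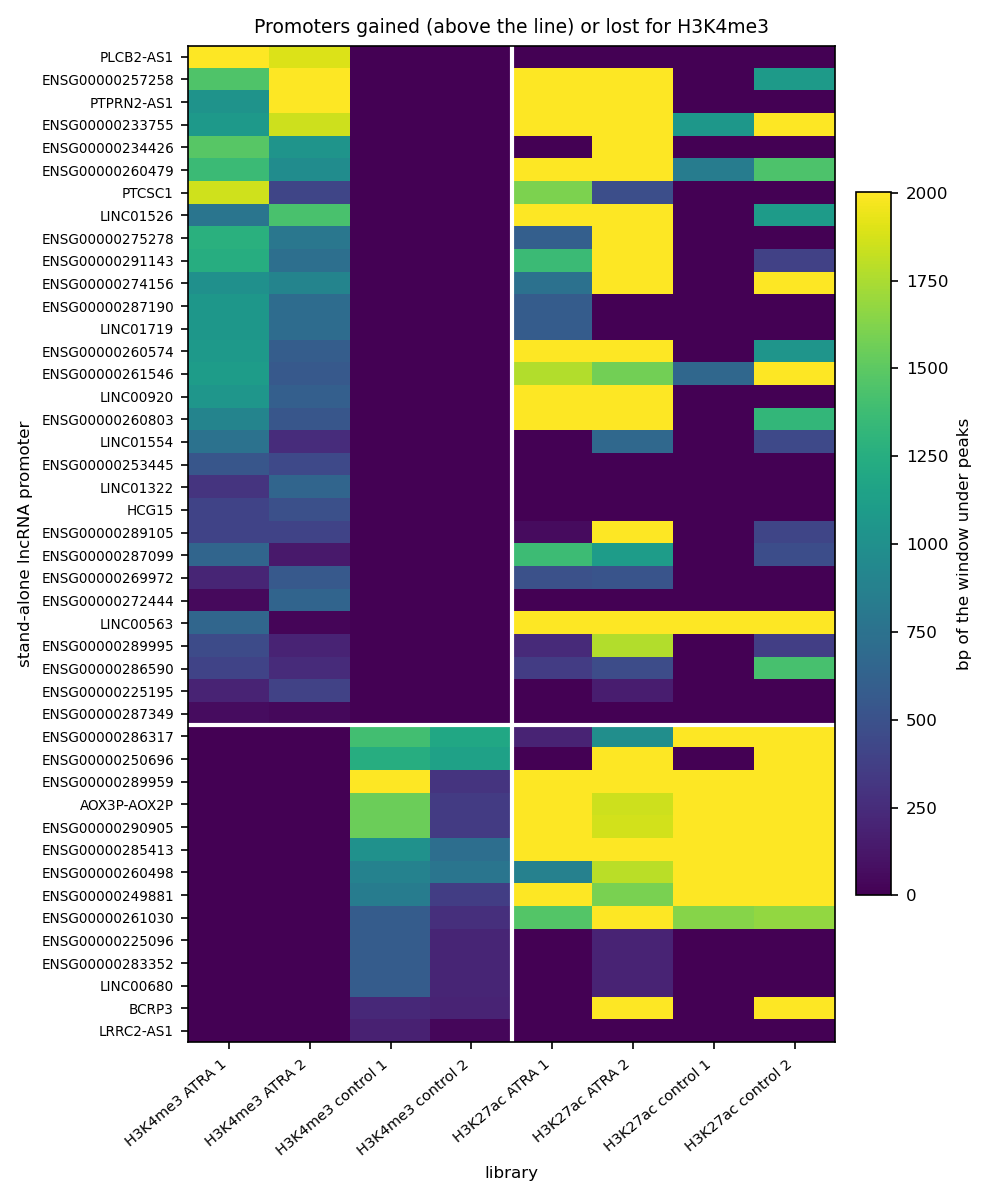
Covered length of the promoter window (color scale, 0 to 2001 bp under peaks) for the 30 stand-alone lncRNA promoters gained and the 14 lost for H3K4me3 (rows) in the 8 libraries (columns; H3K4me3 left, H3K27ac right). The left columns follow from the call, and the right columns show H3K27ac kept in all 4 libraries at 8 of the 14 lost promoters and at 4 of the 30 gained promoters.

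H3K27ac was gained far more often than it was lost. Of the stand-alone lncRNA promoters, 11550 were absent, 478 kept, 204 gained, 27 lost and 1034 mixed. The gained share was 1.53%, against 1.76% over all start sites, 2.93% of lncRNA genes near a coding TSS and 2.57% of protein-coding genes. The lost share was 0.203%, against 0.194% over all start sites, and gains thus outnumbered losses over all start sites too. Kept promoters made up 3.60%, against 14.8% of all start sites. Within each replicate number the ATRA library also held more H3K27ac peaks in all, and with equal peak numbers the split moved from 204 gained and 27 lost to 141 and 50, with 113 gained and 17 lost promoters in common. Without ATRA replicate 1 there were 476 gained and 43 lost, without ATRA replicate 2 there were 339 and 52, without control replicate 1 there were 242 and 150, and without control replicate 2 there were 373 and 48. Within replicate numbers, as a block, 517 were gained and 125.5 lost on average.

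Most H3K27ac calls rested on peaks of low −log10 q. A −log10 q of at least 5 was reached by 12.8% to 16.9% of H3K27ac peaks, depending on the library, but by 80.2% to 87.4% of H3K4me3 peaks. Restricted to such peaks, 37 promoters were gained and 16 lost for H3K27ac, of which 8 and 4 belonged to the main calls. Of the 18 promoters named below, PCAT18 alone was still called. Outside the naming rule and chosen after their values were seen, LINC00544, LINC00555 and TMEM92-AS1 were also gained under both settings. At the stricter setting LINC00544 had 576 and 734 bp with ATRA, LINC00555 had 684 and 569 bp and TMEM92-AS1 had 744 and 1086 bp, all with 0 bp in control.

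The 204 promoters gained for H3K27ac lay at 198 loci, and 65 had a symbol. The 10 named promoters had the whole window covered in both ATRA libraries, 2001 bp each, and 0 bp in both control libraries, so they are set apart by the length of the peaks. PCAT18, a transcript first described in prostate cancer, lay under peaks of 14589 and 12830 bp. LINC01258, 141017 bp from the transcription factor gene KLF3, lay under peaks of 12853 and 13869 bp. LINC01600 had peaks of 12987 and 5949 bp and was the only promoter of the 10 with a CpG observed over expected ratio above 0.6, at 0.81. Of these 3, none had H3K4me3 in any library.

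Several lay within or near genes of known function. XPC-AS1 is named for its neighbor XPC, a DNA damage recognition gene, and had H3K27ac peaks of 12026 and 6571 bp. NECTIN1-AS1 starts in an intron of the adhesion molecule gene NECTIN1 and had peaks of 8773 and 9722 bp. LINC01270 had peaks of 8365 and 9266 bp. Its nearest coding TSS, at 101879 bp, was that of CEBPB, a transcription factor of myeloid cells, and kept both marks. DTNB-AS1, in an intron of DTNB, had peaks of 3285 and 5922 bp, and its nearest coding TSS was that of the DNA methyltransferase gene DNMT3A at 78527 bp. SCUBE1-AS1 had peaks of 6171 and 3381 bp and LINC01038 peaks of 2959 and 4760 bp. H3K4me3 at the 10 promoters was gained at PTPRN2-AS1, mixed at XPC-AS1 (465, 0, 0 and 0 bp) and NECTIN1-AS1 (873, 0, 1087 and 0 bp, ATRA before control) and absent at the other 7.

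Among the 204, H3K4me3 was absent in 164, kept in 16, mixed in 19 and gained in 5. Over all stand-alone lncRNA promoters, most of which had neither mark, it was absent in 92.8%. Among promoters with H3K27ac, it was absent at 106 of the 478 kept, 682 of the 1034 mixed and 22 of the 27 lost. The nearest coding promoter of the 204 was kept for H3K27ac in 55, mixed in 48, absent in 86, gained in 15 and lost in 0. Over all stand-alone lncRNA promoters, most of which had no H3K27ac, the nearest coding promoter was gained in 1.72%. Among promoters with H3K27ac, it was gained at 15 of the 478 kept, 41 of the 1034 mixed and 1 of the 27 lost. The peaks of the 204 gained promoters had a median length of 2873.5 bp, their center lay in the window at 142 of them (69.6%), and they reached a protein-coding TSS at only 3.

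The 27 promoters lost for H3K27ac lay at 26 loci, and 8 had a symbol. GNA15-DT, in an intron of GNA15 on the opposite strand, had 0 bp in both ATRA libraries and 2001 and 1852 bp in control. GNA15 encodes a G protein α subunit found mainly in hematopoietic cells, and its TSS nearest to GNA15-DT kept both marks. LINC02573 had 0 bp with ATRA and 829 and 2001 bp in control, and LINC01226 had 0 bp with ATRA and 1090 and 831 bp in control. TP73-AS2, in an intron of the p53 family gene TP73, had 0 bp with ATRA and 1163 and 587 bp in control. LINC01181, 19681 bp from the TSS of BAALC, a gene first described in acute leukemia, had 0 bp with ATRA and 248 and 1003 bp in control. The remaining named losses were shorter, at 616 and 387 bp for LINC00051, 103 and 503 bp for LINC01979 and 314 and 249 bp for LINC01971. None of these 8 had H3K4me3 in any library. Of all 27 lost promoters 22 lacked it, 4 were mixed and 1 kept it. H3K4me3 was absent in 92.8% of all stand-alone lncRNA promoters. Among those with H3K27ac it was absent at 106 of the 478 kept, 682 of the 1034 mixed and 164 of the 204 gained.

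**Figure D3:**
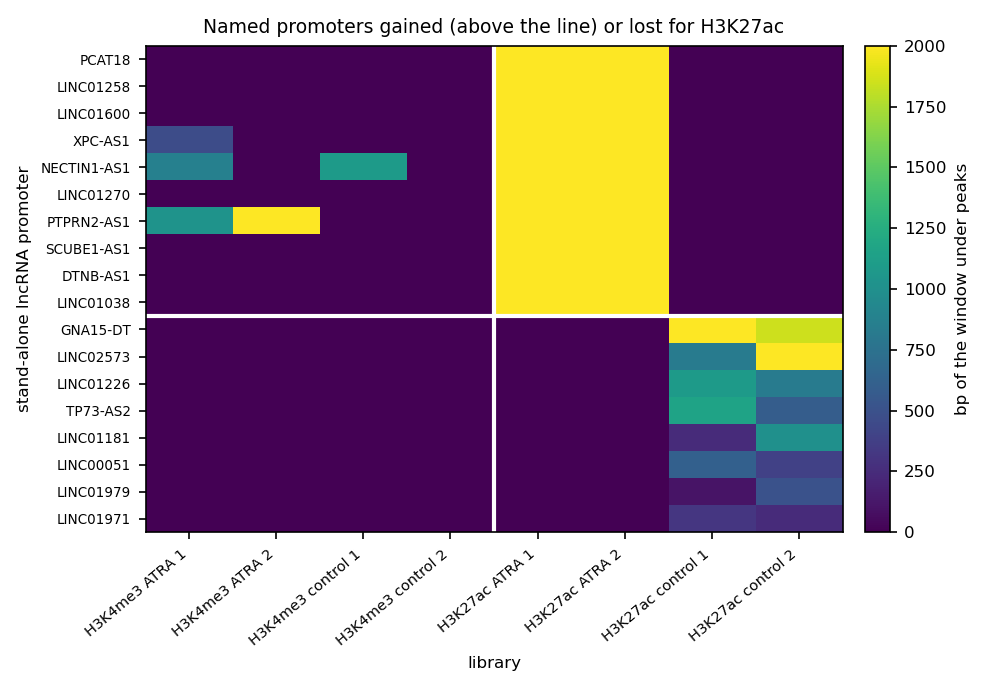
Covered length of the promoter window (color scale, 0 to 2001 bp under peaks) for the 10 named promoters gained and the 8 lost for H3K27ac (rows) in the 8 libraries (columns). H3K27ac follows from the call, and the H3K4me3 columns are empty except at XPC-AS1, NECTIN1-AS1 and PTPRN2-AS1.

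The promoters that kept their marks included most host genes of snoRNAs. Both marks were kept at 303 stand-alone lncRNA promoters (2.28%), against 14% of all start sites. Of 31 host genes of snoRNAs 19 stood alone, and of these genes, which give rise to the small RNAs that guide ribosomal RNA modification, 16 kept H3K4me3 and 15 kept H3K27ac, and none was gained or lost. DANCR had 2001 bp of H3K4me3 in all 4 libraries, with 733 and 731 bp of H3K27ac with ATRA and 708 and 876 bp in control. SNHG8 had 2001 bp of H3K4me3 in all 4 libraries, with 1957 and 1922 bp of H3K27ac with ATRA and 1704 and 2001 bp in control. SNHG21 was the host that kept H3K4me3 but was mixed for H3K27ac, with 1823 and 2001 bp with ATRA and 352 and 0 bp in control.

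MicroRNA host genes were marked less completely. Of 81 such genes 67 stood alone, of which 17 kept H3K4me3 and 10 kept H3K27ac, 1 and 8 were mixed, and none was gained or lost for either mark. MIR17HG, the precursor of a microRNA cluster that promotes proliferation, had 2001 bp of H3K4me3 in every library and 1838, 2001, 1883 and 2001 bp of H3K27ac, ATRA before control. MIR23AHG had 2001 bp of H3K4me3 in every library and H3K27ac over 2001 and 2001 bp with ATRA and 2001 and 1132 bp in control. MIR222HG kept H3K4me3 (2001 bp in each library) and had 1761 and 2001 bp of H3K27ac with ATRA and 0 and 2001 bp in control, so the conditions overlapped.

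Among 14 widely studied lncRNA genes that stood alone, 8 kept H3K4me3 and 6 kept H3K27ac. NEAT1, the scaffold of nuclear paraspeckles, and MALAT1, a nuclear speckle RNA, had 2001 bp of both marks in all 8 libraries. PVT1, the neighbor of MYC, had 2001 bp of H3K4me3 in each library and between 930 and 1689 bp of H3K27ac. MIAT was the only member of the 4 lists that was called, gained for H3K27ac with 420 and 1265 bp with ATRA and 0 bp in both controls, and it had no H3K4me3. KCNQ1OT1, the imprinted antisense transcript of KCNQ1, kept H3K4me3 at 2001 bp in each library but had H3K27ac only in the replicate 2 libraries, 536 bp with ATRA and 200 bp in control. H19 and MEG3, which are imprinted genes silent in many adult tissues, were absent for both marks.

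Of 15 stand-alone blood and immune lncRNA genes, 5 kept H3K4me3, 4 kept H3K27ac and none was gained or lost. With 1.76% of all start sites gained and 0.194% lost for H3K27ac, lists of this size would hold few called members at the background share, and the absence of calls is not a result about the list. MIR223HG, the host of a microRNA abundant in granulocytes, had 996 and 937 bp of H3K4me3 with ATRA and 1140 and 888 bp in control. Its H3K27ac filled the window in each library, under peaks of 30708 and 43356 bp with ATRA and 28679 and 36477 bp in control. The ATRA peak was the longer within each replicate number, while the values of the conditions overlapped, and a filled window cannot show a further change. LINC00926 had 2001 bp of both marks in all libraries. MIR181A1HG had 2001, 2001, 2001 and 1699 bp of H3K4me3 and 865, 2001, 1032 and 2001 bp of H3K27ac, ATRA before control. MIR3142HG kept H3K4me3 (1293 and 978 bp with ATRA, 1222 and 1110 bp in control) without any H3K27ac. MIR155HG, LUCAT1 and MIR4435-2HG were absent for both marks. The lists have 14 to 67 members and share some of them, among them MIR17HG and MIR223HG.

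**Figure D4:**
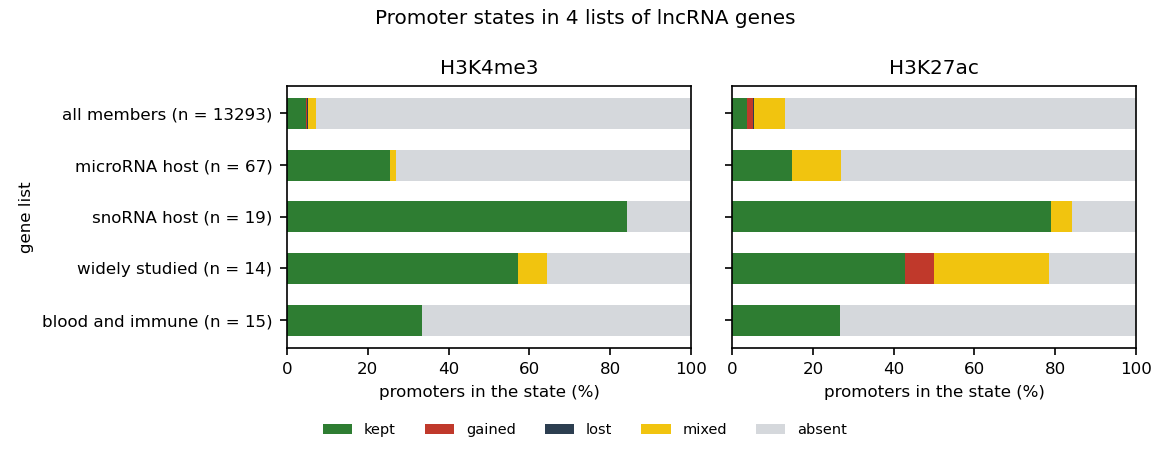
Share of promoters in each state (horizontal axis, %) for all 13293 stand-alone lncRNA promoters and for 4 lists of lncRNA genes, for H3K4me3 (left) and H3K27ac (right). The snoRNA hosts were kept in 16 of 19 for H3K4me3 and 15 of 19 for H3K27ac, and the only called member of the lists is MIAT, gained for H3K27ac.

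Kept promoters differed from gained and lost promoters in sequence. CpG content was measured as the observed over expected ratio of CpG dinucleotides in the 300 bases around the TSS. Its median was 0.24 over all stand-alone lncRNA promoters, 0.69 over protein-coding promoters and 0.32 over all genes. Promoters that kept H3K4me3 had a median of 0.72, with 62.4% above 0.6, whereas those without H3K4me3 had a median of 0.22. The 30 gained for H3K4me3 had a median of 0.20 and the 14 lost of 0.32. Kept, gained and lost H3K27ac promoters had medians of 0.44, 0.22 and 0.32. These are descriptions, since neighboring promoters and shared windows are not independent.

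Short motifs were counted in the same 300 bases, as a description. A PU.1 match stood in 11 of the 30 promoters gained for H3K4me3 (36.7%) and in 7 of the 14 lost, against 29.0% of those that kept it, 26.3% of all stand-alone lncRNA promoters and 25.01% of all promoters of the same length. A RUNX match stood in 8 of the 30 gained (26.7%) and 4 of the 14 lost (28.6%) for H3K4me3. The share was 10.6% of the 631 kept, 19.9% of the mixed and 19.4% of the absent promoters. For H3K27ac, a RUNX match stood in 47 of the 204 promoters gained for H3K27ac (23.04%), against 19.02% of members and 16.9% of all promoters. Among the 27 lost for H3K27ac, 9 held a RUNX match (33.3%) and 3 a PU.1 match (11.1%). A PU.1 match stood in 29.9% of the gained, 29.9% of the kept, 32.9% of the mixed and 25.5% of the absent promoters for H3K27ac. GATA matches stood in 17 of the 204 gained (8.33%), against 16.6% of members and 14.0% of all promoters. This low share was not particular to gained promoters. It was 7.41% at the 27 lost, 11.1% at kept, 13.9% at mixed and 17.3% at absent promoters for H3K27ac, and 8.77% in protein-coding genes. C/EBP matches stood in 12.7% of the 204 gained and 22.2% of the 27 lost for H3K27ac. They stood in 13.9% of members and 11.99% of all promoters. No gained or lost promoter held the retinoic acid response element, which 0.0392% of all promoters held.

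**Figure D5:**
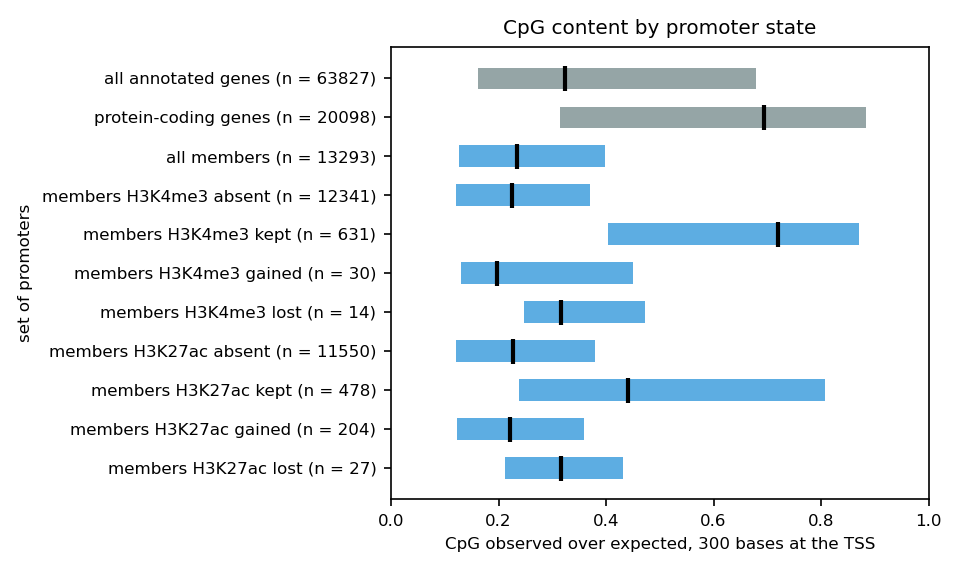
CpG observed over expected in 300 bases at the TSS (horizontal axis) for all genes, protein-coding genes, all stand-alone lncRNA promoters (members) and the members in each state, as the interval from the 25th to the 75th percentile with a tick at the median. The promoters that kept H3K4me3 lie at a median of 0.72, and the gained promoters of both marks at 0.20 and 0.22.

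The states also differed in position, as a description with no test. All stand-alone lncRNA promoters lay a median of 53592 bp from the nearest protein-coding TSS, and 30.1% of them lay inside a protein-coding gene. Promoters kept for H3K4me3 were closer, at a median of 31685 bp, but only 12.04% lay inside a coding gene. Of those gained for H3K4me3, 36.7% lay inside a coding gene at a median of 18131 bp, and of those gained for H3K27ac 38.7% at 29744.5 bp. H3K4me3 covered the whole window in all 4 libraries at 178 of the 631 kept promoters. Among lncRNA genes named LINC, 118 of 2105 kept H3K4me3, 6 gained and 1 lost it, and 38 (1.81%) gained and 6 (0.285%) lost H3K27ac, near the 1.76% and 0.194% of all start sites. Genes named as antisense transcripts had 45 of 803 kept, 2 gained and 1 lost for H3K4me3, and 19 (2.37%) gained and 1 (0.125%) lost for H3K27ac.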

How the data were processed

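The ChIP-seq data comprised 8 peak lists of HL-60 cells, 4 for each mark. According to the methods of the study, adapters were removed, reads were aligned to hg19 with Bowtie and broad peaks were called with MACS2 in each library separately. Input libraries of fragmented genomic DNA were also made, and whether they entered the peak call is not given in the sources used here. For each peak the authors deposited a start and end position, a score that is a rounded multiple of the −log10 q value, and that −log10 q value itself, which was used only as a filter. The deposited fold and −log10 p columns held values that these measures cannot take and were not used. Peak calls depend on depth, which is unknown, so the precision rests on 2 replicates per condition.

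Genes came from GENCODE release 44 lifted to GRCh37 and sequences from that genome. Windows reached 1000 bp on each side of the TSS and counted as marked from 1 bp of overlap. The 94 stand-alone lncRNA genes on chromosome Y were left out because the files list no peaks there. No peak ran past a chromosome end and 0 pairs of libraries were identical. On 5940 simulated windows all 200 gained, 200 lost and 200 kept promoters were recovered for each mark.

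The members, lists and tests were chosen with earlier results of these data known. Named were, per mark and direction, the 10 called promoters with a symbol and the largest difference in mean covered length (ties by summed peak length), those gained or lost for both marks, called members of 4 lists and up to 3 kept members of each list. Other names are given as chosen after their values were seen, or as mixed or absent members of a list. Peak names carry a tag that is common to the ATRA and control library of 1 replicate number. Deviations of covered length from the mean of the condition correlated within numbers (Pearson r = 0.303 over 952 promoters for H3K4me3 and 0.348 over 1743 for H3K27ac). Differences and calls within numbers are therefore given beside the main ones. The permutation tests and the main calls did not use this pairing. Alternatives were windows of 500 bp or 2 kb, a stricter threshold, more overlap, a distance of 10 kb, all transcript starts, merged windows, peaks that reach coding TSS left out, equal peak numbers, the replicate block and each library left out. Some items that these rules cover are not reported here. Python 3.11.15, numpy 2.4.6, pandas 2.3.3, scipy 1.17.1, pysam 0.24.0 and matplotlib 3.10.9 were used.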

Additional observations from a re-analysis of the deposited data

How the results depend on the processing

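All 8 counts and share differences kept their direction or stayed within 1.5 times with windows of 500 bp, with overlapping windows merged and with peaks that reach a coding TSS left out. Similar counts did not mean the same promoters. With windows of 500 bp, 21 of the 30 gained and 11 of the 14 lost for H3K4me3 were called again. For H3K27ac, 152 of the 204 gained and 14 of the 27 lost were. With a window of 2 kb, 9 promoters were gained and 1 lost for both marks, with every transcript start 9 were gained for both, and with no coding TSS within 10 kb 2 were. With at least 1000 bp under peaks, 14 promoters were gained for H3K4me3, 12 lost for H3K27ac, 1 gained for both marks and 1 lost for both. With a −log10 q of at least 5, 37 were gained and 16 lost for H3K27ac, 35 lost for H3K4me3 and 1 gained for both. With equal peak numbers, 50 were lost for H3K27ac, 3 gained for both marks and 1 lost for both. The replicate block, which averages the calls of each number, gave 108 gained and 60.5 lost for H3K4me3, 517 and 125.5 for H3K27ac, and 30 and 2.5 for both marks. In this balanced design it gives the same share differences by construction. Leaving out each library, which loosens the call by its construction, gave 30 to 101 gained and 16 to 77 lost promoters for H3K4me3, 242 to 476 and 43 to 150 for H3K27ac, and 11 to 15 and 0 to 2 for both marks. With single libraries left out, the share difference ranged from -0.282 (reversed, without control replicate 2) to 0.997 points for H3K4me3 and from 1.35 to 4.54 points for H3K27ac. It was 0.0414 and 1.13 points with equal peak numbers, and 0.166 and 0.767 points at the stricter threshold. Of the 14 named H3K4me3 calls, 8 kept their state with windows of 500 bp, 9 with 2 kb, 10 at the stricter threshold, 9 with equal peak numbers and 12 without peaks that reach a coding TSS. Of the 18 named H3K27ac calls, 14, 16, 1, 14 and 18 did. The cause of the losses at the stricter threshold was not tested beyond the share of peaks that pass it. Depth is unknown, and no promoter has a test of its own.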
